A study of Mus musculus with 6 samples.

Results

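The 37 genes described here encode the vacuolar proton pump (V-ATPase), lysosomal membrane proteins, lysosomal hydrolases with their cofactors, and the MiT/TFE transcription factors. They were chosen by symbol from a list of 16 pump genes, 3 membrane protein genes, 8 glycosidases, 7 genes of lipid and protein breakdown and 3 transcription factors. All 37 were found among the 42256 genes of the count table. Bulk RNA of macrophages grown from bone marrow was sequenced in 3 CDH11-/- samples (knockout, KO) and 3 CDH11+/+ samples (wild type, WT). Both genotypes were adult males on a mixed 129S1/Sv x C57BL/6 background, and their marrow was grown for 7 days with 20% L929-conditioned medium and 10% serum, without further treatment. CDH11, cadherin-11, is a cell adhesion protein. The design text of the series speaks of 4 KO animals, and 3 KO samples are analysed here. Since samples are not tied to animals in the labels, p-values cover only the variation among these libraries, which may be technical.

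The V-ATPase is a rotary motor that spends ATP to acidify endosomes and lysosomes. Its cytosolic V1 sector hydrolyses ATP, and its membrane V0 sector carries protons across. The acid it creates activates the hydrolases, which break down what a macrophage takes up. TFEB, TFE3 and MITF are related basic helix-loop-helix factors that bind the E-box CACGTG, and in mammalian cells TFEB and TFE3 drive many lysosomal genes through an extended form of it, the CLEAR element. Osteoclasts, which share a precursor with macrophages, export acid through pumps that contain particular isoforms of the a and d subunits.

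Libraries held 27170943 to 37113689 counts. Cdh11 itself had 4 to 6 counts in KO libraries and 6 to 11 in WT libraries, which does not check the genotype. The macrophage markers Adgre1, Csf1r, Cd68, Itgam, Fcgr1, Mertk, Lyz2 and Cd14 were all detected and passed the count filter. Of the defining markers of other cells, those at 0 in every library included Alas2 (erythroid cells), Tpsb2 (mast cells), Dcn and Lum (fibroblasts) and Calcr (mature osteoclasts). Other markers of these cells had counts. Markers at 0 throughout numbered 2 of 5 erythroid, 1 of 5 mast cell and basophil and 2 of 8 fibroblast and osteoblast genes. They numbered 1 of 10 osteoclast and 0 of 8 neutrophil genes. Summed levels of the marker lists are given below. Unless TPM is named, values are CPM, counts scaled to a common library total with TMM factors. Rises and falls in KO are stated for genes with an adjusted p under 0.05 (edgeR quasi-likelihood test, Benjamini-Hochberg over 12862 tested genes).

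All 37 genes passed the count filter. In KO, 7 rose, 5 fell and 25 were not called. The called share was 32.4%, beside 35.2% of all tested genes (18.5% higher and 16.8% lower in KO), so the list as a whole was called about as often as genes in general. For 20 of the 37 genes the KO and WT libraries did not overlap in CPM, 9 higher and 11 lower in KO, against 53.4% of all tested genes, 27.0% higher and 26.4% lower. The median log2 fold change of the 37 was -0.01, and 0.00 over all genes. Changes were small. The largest was 1.41-fold, and 23.8% of all tested genes changed by more. By role, 5 of the 16 pump genes rose and 0 fell, while of the other 21 genes 2 rose and 5 fell, a contrast that was not tested. For the pump genes edgeR gave 6 rises and 1 fall at an unadjusted p under 0.05, and DESeq2 and limma-voom each called 5 rises and 0 falls. The counts were sensitive to single libraries. The first principal component of the 500 most variable genes placed KO 1 nearest to WT among the KO libraries. KO 1 stood at -7.11, KO 2 at -28.4, KO 3 at -18.4 and the WT libraries at 12.2 to 22.9. Without KO 1 the 37 genes had 8 rises and 7 falls. The 7 rises became 4 without KO 2, KO 3, WT 2 or WT 3 and 3 without WT 1, the 5 falls became 3 without any 1 library except KO 1, and the 5 pump rises became 3 without KO 2, KO 3, WT 2 or WT 3 and 2 without WT 1. Without KO 2 and WT 2 together no pump gene was called in edgeR, and 3 were higher and 0 lower at an unadjusted p under 0.05.

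**Figure D1:**
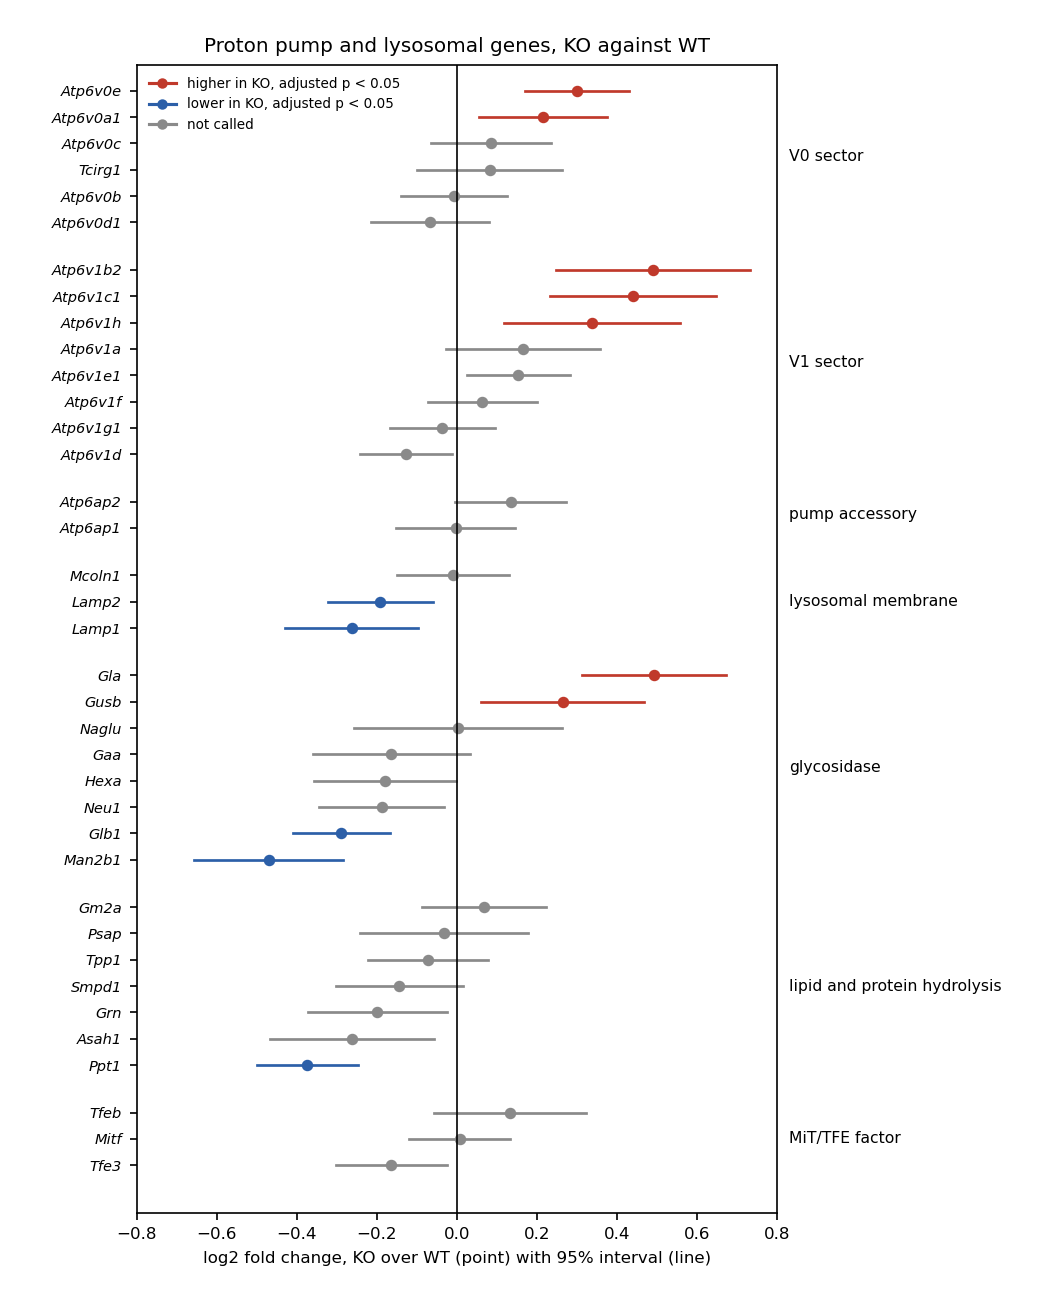
Log2 fold change of KO over WT (x axis) for each of the 37 genes (rows, grouped by role), with points for edgeR's estimate and lines for its 95% interval. All 5 called pump genes lie to the right of 0, both called membrane proteins lie to the left, and no estimate is beyond 0.49 in size.

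Promoters were read for the E-box because the MiT/TFE factors are part of the list. RefSeq windows of 300 bases (250 before to 50 after a transcript start, build GRCm38.p6) matched 32 of the 37 genes. No window matched Atp6v1b2, Atp6v1c1, Atp6v1h, Atp6v1g1 or Asah1, and the first 3 of these were called higher in KO. The hexamer CACGTG was found in 10 of these 32 genes (31.2%), and in 8.09% of all 27025 genes with a window. The 27025 genes were not matched to the 32 in expression or base composition. The longer core TCACGTGA, which contains the hexamer, was found in 5 of 32 genes (15.6%) and in 1.12% of all genes. The longest motif searched, this core with a further fixed base on each side, was found in 0 of 32 genes and in 0.37% of all genes. The related box TCATGTGA, searched on both strands and sharing no letters with a CACGTG match, was found in 5 of 32 genes (15.6%), namely Ppt1, Tpp1, Grn, Atp6v0c and Gla, and in 1.15% of all genes. The other motifs read the same on both strands. The 10 genes with CACGTG were Atp6v0b, Atp6v0d1, Atp6v0e, Atp6v1a, Mcoln1, Lamp1, Glb1, Naglu, Gaa and Gla. Of these 2 rose, 2 fell and 6 were not called, with a median log2 fold change of -0.01, against 2 rises, 3 falls and 17 not called among the 22 genes without it (median -0.02). Of the 5 genes with TCACGTGA (Atp6v0d1, Atp6v0e, Atp6v1a, Mcoln1 and Gla) 2 rose, 0 fell and 3 were not called. Among the 27 genes without it 2 rose, 5 fell and 20 were not called. A link between these boxes and the direction of change was not tested.

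The windows of the 4 called genes with CACGTG are shown, 5′ to 3′ on the strand of the gene, because they carry the same box while their transcripts changed in opposite directions. Capitals mark CACGTG or, where present, the whole of TCACGTGA or TCATGTGA. The windows are chr17:26676146-26676445 (plus strand) for Atp6v0e, chrX:134600956-134601255 (minus strand) for Gla, chr8:13158911-13159210 (plus strand) for Lamp1 and chr9:114400828-114401127 (plus strand) for Glb1.
Atp6v0e, higher in KO: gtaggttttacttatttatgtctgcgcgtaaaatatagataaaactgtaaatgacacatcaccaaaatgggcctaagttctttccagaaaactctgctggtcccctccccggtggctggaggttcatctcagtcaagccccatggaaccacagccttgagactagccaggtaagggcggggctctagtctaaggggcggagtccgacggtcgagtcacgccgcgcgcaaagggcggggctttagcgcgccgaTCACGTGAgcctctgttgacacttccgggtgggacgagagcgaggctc
Gla, higher in KO: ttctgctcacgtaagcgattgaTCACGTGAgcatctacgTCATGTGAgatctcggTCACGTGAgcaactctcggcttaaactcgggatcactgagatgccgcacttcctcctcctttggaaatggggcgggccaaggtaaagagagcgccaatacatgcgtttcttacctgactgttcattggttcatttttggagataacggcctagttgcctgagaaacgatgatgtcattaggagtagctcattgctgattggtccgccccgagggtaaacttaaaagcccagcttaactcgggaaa
Lamp1, lower in KO: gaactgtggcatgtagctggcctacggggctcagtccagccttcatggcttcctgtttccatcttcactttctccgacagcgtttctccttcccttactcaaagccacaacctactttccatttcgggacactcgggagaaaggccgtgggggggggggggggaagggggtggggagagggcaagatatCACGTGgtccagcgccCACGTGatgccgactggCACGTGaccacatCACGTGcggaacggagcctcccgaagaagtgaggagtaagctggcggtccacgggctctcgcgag
Glb1, lower in KO: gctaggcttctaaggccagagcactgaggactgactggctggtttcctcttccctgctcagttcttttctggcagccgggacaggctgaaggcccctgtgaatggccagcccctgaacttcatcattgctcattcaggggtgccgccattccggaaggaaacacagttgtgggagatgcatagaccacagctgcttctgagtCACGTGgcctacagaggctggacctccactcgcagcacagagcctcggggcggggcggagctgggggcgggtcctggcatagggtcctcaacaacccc
Lamp1 had 4 copies of the hexamer within 61 bases of its start. Gla had 2 copies, the nearer one beginning 194 bases upstream, and a TCATGTGA between them. The single box of Glb1 began 48 bases upstream, and that of Atp6v0e lay 3 bases after the start. A match of letters is a description of the window and not evidence that a factor binds there.

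Among the 8 genes of the ATP-hydrolysing V1 sector, 3 rose in KO and 0 fell. This called share of 37.5% was close to the 35.2% of all tested genes. Atp6v1b2 (ENSMUSG00000006273, GRCm38 chromosome 8, 69088646 to 69113711, plus strand) encodes the B subunit that forms the catalytic head together with the A subunit. It stood at 697, 905 and 768 CPM in KO libraries, against 556, 533 and 598 CPM in WT libraries. Every KO library lay above every WT library, and KO 2 was the highest. The rise was 1.41-fold (log2 fold change 0.49, SE 0.10; edgeR adjusted p = 0.0127), and its call was lost without WT 1.

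Atp6v1c1, the C subunit that clamps the stalk of the pump together (ENSMUSG00000022295, chromosome 15, 38661933 to 38692446, plus strand), stood at 189, 224 and 226 CPM in KO libraries, against 163, 164 and 144 CPM in WT libraries. The genotypes did not overlap, and the rise of 1.36-fold (log2 fold change 0.44, SE 0.09; edgeR adjusted p = 0.0111) held without any 1 library. Atp6v1h, the regulatory H subunit (ENSMUSG00000033793, chromosome 1, 5070018 to 5162529, plus strand), had 93.7, 119 and 108 CPM in KO libraries, against 89.6, 79.8 and 84.5 CPM in WT libraries. It rose 1.26-fold (log2 fold change 0.34, SE 0.09; edgeR adjusted p = 0.0301), with a gap of only a few CPM between KO 1 and WT 1, and its call was lost without any 1 library except KO 1.

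The other 5 V1 genes were not called. Atp6v1a, the catalytic A subunit, had 792 ± 60.5 CPM in KO and 706 ± 46.3 CPM in WT (SD, n = 3 each), with overlapping libraries. The stalk subunit genes Atp6v1d and Atp6v1e1 did separate the genotypes but in opposite directions. Atp6v1d had 109.8, 111 and 112 CPM in KO libraries, against 120.1, 123 and 119 CPM in WT libraries. Atp6v1e1 had 201, 216 and 202 CPM in KO libraries, against 185, 186 and 186 CPM in WT libraries. Their adjusted p values from edgeR were 0.0818 and 0.064. Atp6v1e1 was called higher under 2 of the 15 alternatives, without KO 1 (edgeR adjusted p = 0.0482) and among genes with a mean of at least 10 CPM (0.0386), within a range of 0.0386 to 0.257. Atp6v1f and Atp6v1g1 overlapped between genotypes, with log2 fold changes of 0.06 and -0.04. Across the V1 sector edgeR gave 4 higher and 1 lower gene at an unadjusted p under 0.05, and DESeq2 and limma-voom each called 3 rises and 0 falls. The 3 rises became 1 without WT 1.

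In the proton-carrying V0 sector, 2 of 6 genes rose in KO and 0 fell (2 and 0 also at an unadjusted p under 0.05, and in DESeq2 and limma-voom). This called share of 33.3% was close to the 35.2% of all tested genes. Atp6v0e, a small membrane subunit (ENSMUSG00000015575, chromosome 17, 26663231 to 26699647, plus strand), had 168, 179.5 and 181 CPM in KO libraries, against 145, 139.6 and 144 CPM in WT libraries. The genotypes were well apart, and the rise of 1.23-fold (log2 fold change 0.30, SE 0.06; edgeR adjusted p = 0.008802) held without any 1 library. Atp6v0a1, the a1 isoform of the subunit that lines the proton path (ENSMUSG00000019302, chromosome 11, 101009452 to 101063719, plus strand), had 426, 479 and 457 CPM in KO libraries, against 401, 372 and 402 CPM in WT libraries. It rose 1.16-fold (log2 fold change 0.21, SE 0.07; edgeR adjusted p = 0.0456), close to the threshold, and its call was lost without any 1 library except KO 1, and on the deposited normalized signal (log2 fold change 0.23) or with no low-count filter (0.21).

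The remaining V0 genes were not called. The ring subunits that turn in the membrane, Atp6v0b and Atp6v0c, had 321 ± 8.43 and 627 ± 23.3 CPM in KO, against 322 ± 11.4 and 591 ± 26.8 CPM in WT (SD, n = 3 each). Counts of Atp6v0c are uncertain, since the table also lists its pseudogene Atp6v0c-ps2 with 22670 counts over the 6 libraries, against 109854 for the gene itself. Tcirg1, the a3 isoform that acidifies the resorption pit of osteoclasts, had 441, 469.8 and 501 CPM in KO libraries, against 428, 481 and 425 CPM in WT libraries. WT 2 lay within the KO range, and the 95% interval of the fold change ran from 0.934 to 1.201. Atp6v0d1, the widely expressed d1 isoform of the subunit that joins rotor and membrane ring, had 159, 163 and 173 CPM in KO libraries, against 177, 178 and 162 CPM in WT libraries, with a log2 fold change of -0.07.

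Atp6v0d2 is the d2 isoform known from osteoclasts and macrophages, and it is no member of the list. Its log2 fold change of 1.63 (SE 0.25; edgeR adjusted p = 0.007504) was the largest among all pump genes tested, and the call held without any 1 library. Its libraries stood at 209, 364 and 232 CPM in KO, against 76.7, 75.9 and 108 CPM in WT, with KO 2 the highest and no overlap. On a scale per length (TPM, using the merged exons of each gene), d2 averaged 289.7 ± 90.4 in KO and 94.98 ± 20.8 in WT, and d1 averaged 269 ± 9.36 in KO and 285 ± 12.9 in WT (SD, n = 3 each). The d2 share of both d genes was thus 46.5, 59.6 and 47.03% of TPM in KO libraries, against 22.2, 22 and 30.5% in WT libraries. Among the a subunit genes, the shares of Atp6v0a1 and Tcirg1 overlapped between genotypes. Tcirg1 made up 57.1, 55.9 and 58.6% of the TPM of Atp6v0a1, Atp6v0a2 and Tcirg1 in KO libraries, against 57.7, 61.8 and 57.5% in WT libraries. The small share of Atp6v0a2 did not overlap, with 4.16, 4.12 and 3.95% in KO libraries against 4.32, 4.68 and 4.35% in WT libraries. The level of Atp6v0a2 itself did overlap and was not called, at 48.98 ± 1.84 CPM in KO and 48.99 ± 3.69 CPM in WT (SD, n = 3 each).

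**Figure D2:**
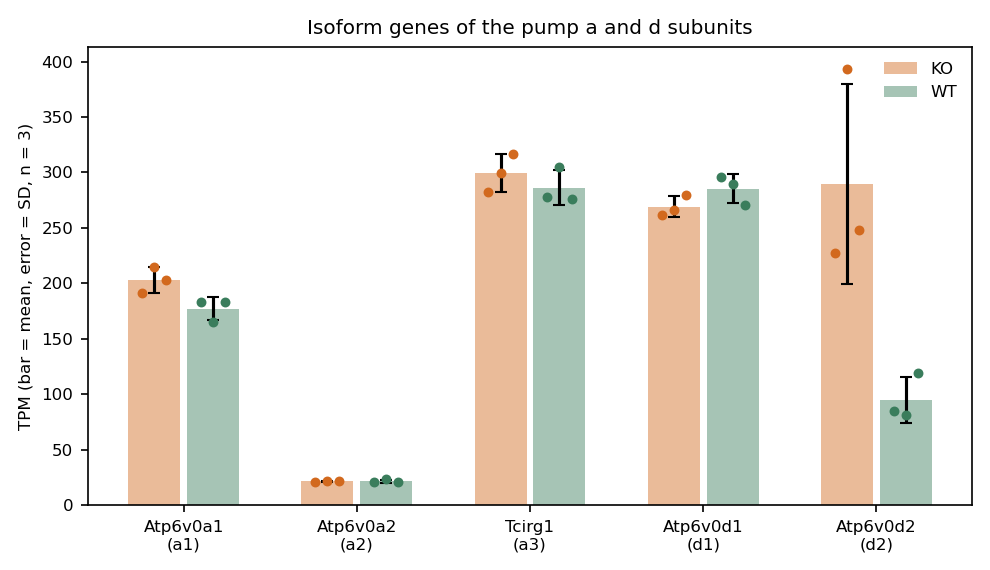
TPM (y axis) of the isoform genes of the pump a subunit (a1, a2, a3) and d subunit (d1, d2), with bars for the mean, error bars for the SD and points for the 3 KO and 3 WT libraries. The d2 gene stands at 289.7 TPM in KO and 94.98 TPM in WT, while the d1 gene stands at 269 TPM in KO and 285 TPM in WT.

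Atp6v0d2 was also 1 of 10 genes in a list of osteoclast markers, and other genes of that list were also higher in KO. Of its 8 tested genes 5 rose (Ctsk, Ocstamp, Dcstamp, Mmp9 and Atp6v0d2) and 1 fell (Nfatc1), while Calcr was at 0 in every library and Oscar averaged 0.0231 CPM in KO and 0.0341 CPM in WT. The called share of this list was 75%, beside 35.2% of all tested genes. The list was chosen with earlier results of these data known, which may shape that share. Without Atp6v0d2 its summed level was 187, 289.7 and 229 CPM in KO libraries, against 128, 143 and 152 CPM in WT libraries. The 8 macrophage markers summed to 19539 to 25242 CPM in KO and 31026 to 33588 CPM in WT, without overlap, with Cd68 higher in KO and Csf1r, Lyz2 and Cd14 lower. Megakaryocyte markers summed to 178 to 282 CPM in KO and 167 to 243 CPM in WT. Most of that sum was Pf4, which was not called, while Itga2b and Ppbp, both at most 7.002 CPM in any library, rose. Neutrophil markers summed to 83.03 to 165 CPM in KO and 123 to 198 CPM in WT, and of 7 tested none was called in edgeR, with 1 higher at an unadjusted p under 0.05, while DESeq2 called 1 lower and limma-voom none. Marker lists of dendritic, B, T and NK, erythroid and mast cells and of fibroblasts each summed to at most 12.4 CPM in any library. The part of these markers in the pump results was not tested, and in bulk RNA fewer cells of a type and less RNA per cell cannot be told apart.

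The accessory subunits, needed to assemble the pump and steer it to membranes, were not called. Atp6ap1 had 414 ± 24.9 CPM in KO and 415 ± 6.37 CPM in WT (SD, n = 3 each). Atp6ap2, also known as the prorenin receptor, had 216, 219 and 226 CPM in KO libraries, against 198, 192 and 212 CPM in WT libraries. Its genotypes did not overlap (log2 fold change 0.13, edgeR adjusted p = 0.113). In a list of 12 genes of pump assembly and regulation, 1 of 11 tested rose and 3 fell. This called share of 36.4% was close to the 35.2% of all tested genes. Vma21, a chaperone that assembles V0 in the endoplasmic reticulum, rose 1.48-fold, with 63.7, 75.99 and 62.6 CPM in KO libraries against 44.8, 40.003 and 51.7 CPM in WT libraries, a call lost without WT 1. The falls were those of Rogdi (log2 fold change -0.59), Tbc1d24 (-0.36) and Oxr1 (-0.20), each lost without KO 3 or without WT 1. Without KO 3 or WT 1 none of the falls was called, with 3 falls at an unadjusted p under 0.05 in edgeR in either case, and without KO 1 the list had 5 falls.

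Of the 3 lysosomal membrane protein genes, 2 fell in KO and 0 rose, and the counts were the same in DESeq2, in limma-voom and in edgeR at an unadjusted p under 0.05. Over all tested genes 16.8% were lower in KO. Lamp1 and Lamp2 are heavily glycosylated proteins that line the inner face of the lysosomal membrane. Lamp1 (ENSMUSG00000031447, chromosome 8, 13159161 to 13175338, plus strand) had 1954, 1814 and 2026 CPM in KO libraries, against 2260.1, 2381 and 2308 CPM in WT libraries, a fall to 0.834-fold (log2 fold change -0.26, SE 0.07; edgeR adjusted p = 0.0275). Lamp2 (ENSMUSG00000016534, chromosome X, 38401357 to 38456454, minus strand) had 559.9, 531 and 548 CPM in KO libraries, against 617, 631 and 623 CPM in WT libraries, a fall to 0.876-fold (log2 fold change -0.19, SE 0.06; edgeR adjusted p = 0.0351). Neither gene overlapped between genotypes, but both calls were lost without any 1 library except KO 1, and that of Lamp2 also with scaling by library totals only (log2 fold change -0.18) and with no low-count filter (-0.19). Mcoln1, the calcium channel TRPML1 that relays lysosomal signals to TFEB, had 56.1 ± 2.31 CPM in KO and 56.5 ± 2.51 CPM in WT (SD, n = 3 each) and was not called.

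Among the 8 glycosidases, which take sugars off glycolipids and glycoproteins, 2 rose and 2 fell in KO. The called share was 50%, beside 35.2% of all tested genes (18.5% higher and 16.8% lower). At an unadjusted p under 0.05 edgeR gave 2 rises and 4 falls, DESeq2 called 2 and 2, and limma-voom 1 and 2. The 2 rises became 1 without any 1 library except KO 1, while the 2 falls stayed 2. Gla, alpha-galactosidase A, which removes the last galactose of globotriaosylceramide (ENSMUSG00000031266, chromosome X, 134588149 to 134601125, minus strand), had 166, 188 and 201 CPM in KO libraries, against 129, 131 and 134 CPM in WT libraries. All KO libraries were above all WT libraries, which lay close together. The log2 fold change was 0.49 (SE 0.08; edgeR adjusted p = 0.00649), and the call held under each of the 15 alternatives run.

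Man2b1, lysosomal alpha-mannosidase (ENSMUSG00000005142, chromosome 8, 85083270 to 85098282, plus strand), had 734, 654 and 763 CPM in KO libraries, against 959, 1052 and 968 CPM in WT libraries. It fell to 0.722-fold without overlap (log2 fold change -0.47, SE 0.08; edgeR adjusted p = 0.00737), and this call too held under each of the 15 alternatives. Glb1, the beta-galactosidase that degrades the ganglioside GM1 (ENSMUSG00000045594, chromosome 9, 114401076 to 114474898, plus strand), had 101, 104 and 106 CPM in KO libraries, against 123, 127 and 130.01 CPM in WT libraries. It fell to 0.819-fold (log2 fold change -0.29, SE 0.05; edgeR adjusted p = 0.008401). The genotypes did not overlap, and the call held without any 1 library. Part of its counts is uncertain, since 165 of its 3008 merged exon bases are shared with Tmppe on the same strand, which had 3742 counts in all against 20838 for Glb1.

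Gusb, beta-glucuronidase (ENSMUSG00000025534, chromosome 5, 129989011 to 130003049, minus strand), had 562, 682 and 625 CPM in KO libraries, against 496, 508 and 552 CPM in WT libraries. The lowest KO and the highest WT library were nearly level, and the rise of 1.201-fold (log2 fold change 0.26, SE 0.09; edgeR adjusted p = 0.0495) was lost in limma-voom (log2 fold change 0.26), with RLE scaling (0.26), on the deposited signal (0.24) and without any 1 library except KO 1. Hexa, the alpha subunit of hexosaminidase, and Neu1, the sialidase, separated the genotypes without being called. Hexa had 1237, 1066 and 1218 CPM in KO libraries, against 1344, 1328 and 1313 CPM in WT libraries (edgeR adjusted p = 0.103). Neu1 had 113, 109 and 122 CPM in KO libraries, against 131, 137 and 124 CPM in WT libraries (edgeR adjusted p = 0.0634). Naglu, which acts on heparan sulfate, and Gaa, the glycogen-degrading acid alpha-glucosidase, overlapped between genotypes, with log2 fold changes of 0.00 and -0.16.

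Of the 7 genes of lipid and protein breakdown 1 fell in KO and 0 rose, a called share of 14.3% beside 35.2% of all tested genes. At an unadjusted p under 0.05 edgeR gave 3 falls and 0 rises, DESeq2 called 3 falls and 0 rises, and limma-voom 2 and 0. Ppt1, the thioesterase that strips palmitate from proteins (ENSMUSG00000028657, chromosome 4, 122836242 to 122859175, plus strand), had 124, 119 and 123 CPM in KO libraries, against 162, 152 and 160.5 CPM in WT libraries. The genotypes were far apart relative to their spread, and the fall to 0.772-fold (log2 fold change -0.37, SE 0.05; edgeR adjusted p = 0.00579) held under each of the 15 alternatives. Its exons share 129 bases with Cap1 on the other strand, which had 177548 counts in all against 25404 for Ppt1, and the strand setting of the counting is not given in the sources used here.

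Asah1, acid ceramidase, and Grn, progranulin, lay just outside the threshold. Asah1 had 405, 348 and 322 CPM in KO libraries, against 432, 429.7 and 426 CPM in WT libraries (log2 fold change -0.26, edgeR adjusted p = 0.0531), and DESeq2 and limma-voom called it. Grn had 1812, 1854 and 2028 CPM in KO libraries, against 2107, 2275 and 2153 CPM in WT libraries (log2 fold change -0.20, edgeR adjusted p = 0.0721), and DESeq2 called it. In both genes every KO library was below every WT library. Psap, the precursor of the saposins that present sphingolipids to their hydrolases, was the most abundant of the 37 genes per length, at 14520.3 ± 1090.5 TPM in KO and 15042 ± 283 TPM in WT (SD, n = 3 each), and its log2 fold change was -0.03 with a 95% interval of -0.24 to 0.18. Gm2a, the GM2 activator, Tpp1, a tripeptidyl peptidase, and Smpd1, acid sphingomyelinase, overlapped between genotypes, with log2 fold changes of 0.07, -0.07 and -0.14.

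With all libraries, none of the MiT/TFE factor genes passed the threshold in edgeR, DESeq2 or limma-voom, and 1 of 3 had an unadjusted p under 0.05 in edgeR. Tfeb had 69.6, 73.2 and 75.9 CPM in KO libraries, against 59.1, 68.99 and 71.5 CPM in WT libraries, with overlap. Tfe3 had 158, 143 and 149 CPM in KO libraries, against 165, 174 and 166 CPM in WT libraries, with every KO library lower (log2 fold change -0.16, edgeR adjusted p = 0.0655). Without KO 1, 1 of the 15 alternatives, Tfe3 was called lower (edgeR adjusted p = 0.0286, within a range of 0.0286 to 0.324 over the alternatives). Mitf had 118, 112 and 109.9 CPM in KO libraries, against 114, 110.2 and 114 CPM in WT libraries. The 95% intervals of the fold change were 0.962 to 1.25 for Tfeb, 0.811 to 0.982 for Tfe3 and 0.921 to 1.097 for Mitf, and transcript levels do not report the nuclear entry by which these factors are mainly regulated. Over all 25 genes that were not called, the intervals ran from 0.724- to 1.28-fold, so a change of 1.5-fold or more lay outside each of them.

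**Figure D3:**
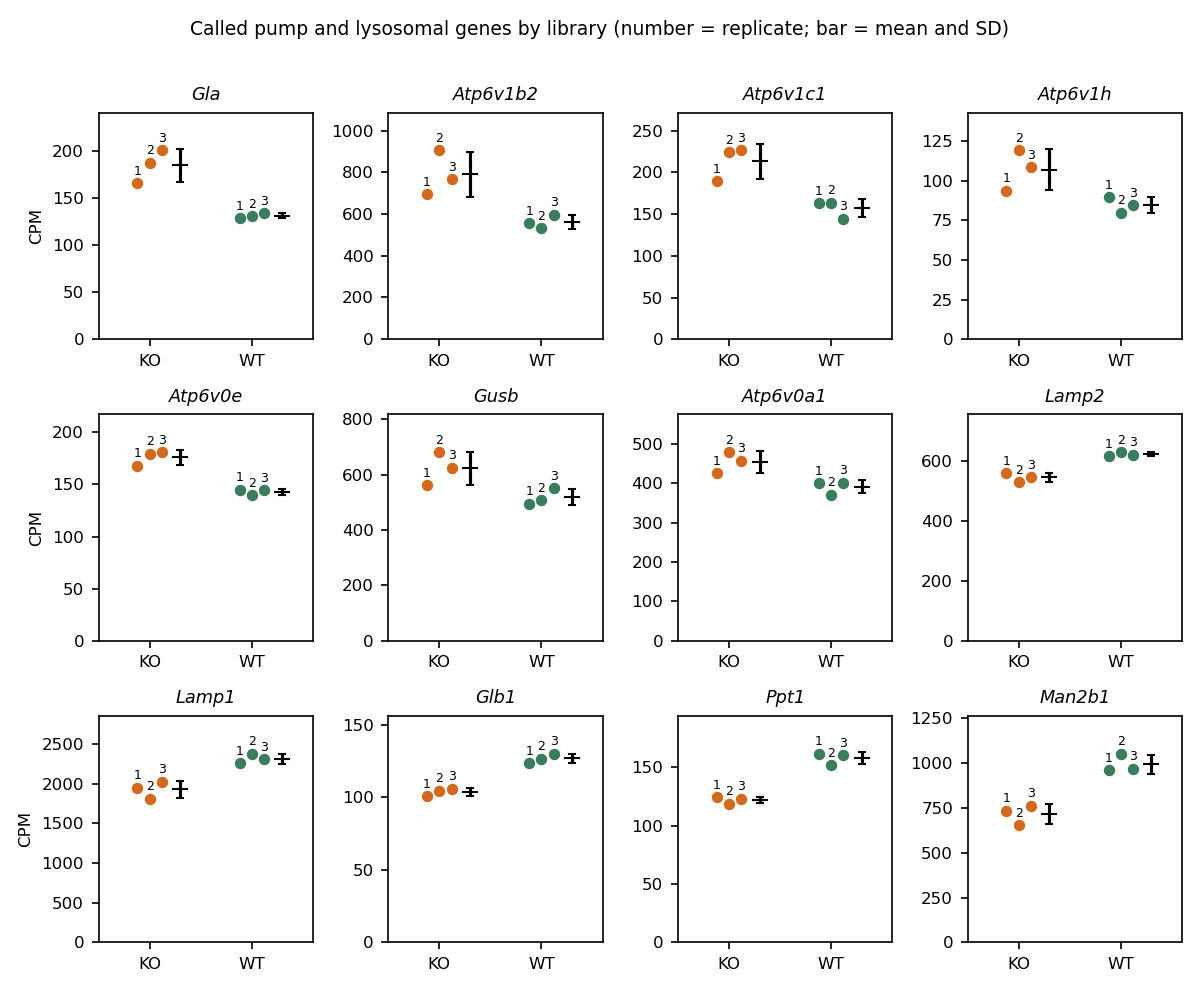
CPM (y axis, from 0) of the 12 called genes in each KO and WT library, with replicate numbers beside the points and bars for the mean and SD. The panels run from the largest rise (Gla, 185 CPM in KO and 131 CPM in WT) to the largest fall (Man2b1, 717 CPM in KO and 993 CPM in WT), and in no panel do the genotypes overlap.

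Relative to all counts, the 16 pump genes took 0.515, 0.565 and 0.559% in KO libraries, against 0.488, 0.468 and 0.494% in WT libraries, without overlap. The 15 hydrolases and cofactors took 1.92, 1.93 and 2.14% in KO libraries, against 2.06, 2.11 and 2.07% in WT libraries, with overlap and with Psap as the bulk. Per length the 37 genes ran from Psap, at the level given above, to Mcoln1 at 21.8 ± 0.802 TPM in KO and 22.2 ± 0.977 TPM in WT (SD, n = 3 each). Among the pump genes Atp6v1g1 averaged 559.6 TPM in KO and 581 TPM in WT, while Atp6v1h averaged 32.1 TPM in KO and 25.8 TPM in WT. These ranks depend on merged exon lengths, which can exceed the length of the transcripts present. They were 1135 bases for Atp6v1g1, 9746 for Atp6v1h and 7555 for Mcoln1. In CPM the gap was smaller, with Atp6v1g1 at 217 in KO and 222 in WT and Atp6v1h at 107 and 84.6. Smpd1, at 27.8 CPM in KO and 30.7 CPM in WT, lay below Mcoln1 in CPM. On chromosome 8, which carries Cdh11, lie 6 of the 37 genes, and 689 of the 12862 tested genes. Atp6v0d1 is 2.74 Mb from Cdh11 and was not called, and the called genes Man2b1, Atp6v1b2 and Lamp1 are 17.5, 33.5 and 89.5 Mb away. Asah1 and Mcoln1, 61.3 and 99.1 Mb away, were not called.

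Other lysosomal genes were read from 7 lists, chosen with earlier results of these data known, which may shape their called shares. The lists held 137 genes in all, of which 129 were tested. In KO 22 of them rose and 40 fell, a called share of 48.1% beside 35.2% of all tested genes (18.5% higher and 16.8% lower), and their median log2 fold change was -0.11 beside 0.00 over all genes. Of the 35 genes listed as other hydrolases, 8 rose and 11 fell, a called share of 54.3%. Sgsh and Hgsnat, both needed to break down heparan sulfate as Naglu is, fell. Hgsnat, counted in this list, encodes an acetyltransferase and not a hydrolase. Sgsh had 85.3, 65.3 and 80.6 CPM in KO libraries, against 142, 146 and 130.5 CPM in WT libraries (log2 fold change -0.86, SE 0.10; edgeR adjusted p = 0.00499). Hgsnat had 109, 107 and 82.7 CPM in KO libraries, against 167, 165 and 149 CPM in WT libraries (log2 fold change -0.69). Hyal1, a hyaluronidase, rose 2.21-fold, with 17.9, 30.4 and 27.05 CPM in KO libraries against 11.1, 11.5 and 11.4 CPM in WT libraries. The calls of Sgsh, Hgsnat and Hyal1 held without any 1 library, whereas that of Plbd1 (log2 fold change 1.59, with 2.703 to 8.14 CPM in KO and 1.26 to 2.08 CPM in WT) was lost without any 1 library except KO 1. The 8 rises of the list became 4 without KO 2, 3 without KO 3, 1 without WT 1 and 2 without WT 2, and its 11 falls became 7 without KO 2 and 5 without WT 1.

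Of 25 other lysosomal membrane and transport genes tested, 3 rose and 11 fell in KO, with a median log2 fold change of -0.19. The called share was 56%, beside 35.2% of all tested genes (18.5% higher and 16.8% lower). Slc36a1, which exports amino acids from lysosomes, fell to 58.6 ± 9.71 CPM in KO, against 96.3 ± 6.91 CPM in WT, and Ctns, the cystine exporter, fell to 41.5 ± 5.37 CPM in KO, against 61.5 ± 3.18 CPM in WT (SD, n = 3 each). Tpcn2, a sodium and calcium channel of the same membrane, rose 1.59-fold, to 89.1 ± 4.62 CPM in KO, against 56.2 ± 4.85 CPM in WT (log2 fold change 0.67, SE 0.08; edgeR adjusted p = 0.00466). All 3 of these calls held without any 1 library. Laptm4b fell by 0.55 on the log2 scale, a call lost without any 1 library except KO 3. The 11 falls of the list became 7 without KO 2 and 5 without WT 1, and its 3 rises became 1 without KO 2, KO 3, WT 1 or WT 2.

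In the list of mannose 6-phosphate sorting, which brings hydrolases to lysosomes, 3 of 12 genes rose and 2 fell. The called share was 41.7%, beside 35.2% of all tested genes. Igf2r, the large mannose 6-phosphate receptor, rose 2.66-fold with wide spread, at 96.1, 227 and 175 CPM in KO libraries against 53.04, 54.3 and 79.7 CPM in WT libraries, a call lost without KO 2, KO 3, WT 1 or WT 2. M6pr, the small receptor, rose 1.18-fold, and Gnptg, a subunit of the enzyme that makes the mannose 6-phosphate tag, rose 1.23-fold. Sort1, a sorting receptor that does not need the tag, fell by 0.37 and Gga3, an adaptor that binds these receptors, fell by 0.34 on the log2 scale. None of the rises was called without KO 2 or WT 1, where 3 had an unadjusted p under 0.05 in edgeR in either case, and 1 was called without KO 3, WT 2 or WT 3. The 2 falls became 1 without any 1 WT library and on the deposited signal.

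Of 20 partners and regulators of the MiT/TFE factors on the lysosomal surface, 6 rose and 5 fell in KO. The called share was 55%, beside 35.2% of all tested genes (18.5% higher and 16.8% lower). Tfec, the fourth gene of the MiT/TFE family, fell to 33.2, 26.1 and 24.5 CPM in KO libraries, against 48.8, 51.2 and 41.8 CPM in WT libraries (log2 fold change -0.76, SE 0.13; edgeR adjusted p = 0.00805), and the call held without any 1 library. Flcn and Fnip1, which together act on the Rag GTPases that hold TFEB and TFE3 in the cytosol, fell to 0.669-fold and 0.743-fold, the call of Flcn being lost without WT 1. Tbc1d7, a subunit of the TSC complex that restrains mTORC1, rose 1.39-fold, a call lost without KO 2, KO 3, WT 1 or WT 2. None of the 6 rises was called without KO 2, KO 3, WT 1 or WT 2, where 5 or 6 had an unadjusted p under 0.05 in edgeR. There were 2 rises without WT 3 and 3 on the deposited signal, and the 5 falls became 2 without WT 1.

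Falls numbered 8 and rises 0 among the 22 autophagy genes, whose median log2 fold change was -0.17. Their called share of 36.4% was close to the 35.2% of all tested genes, of which 16.8% were lower in KO. EdgeR gave 12 falls and 0 rises at an unadjusted p under 0.05, DESeq2 called 8 falls and 0 rises, and limma-voom 9 and 0. Ulk1, the kinase that starts autophagosome formation, had 47.4, 39.8 and 46.1 CPM in KO libraries, against 76.4, 78.5 and 72.4 CPM in WT libraries (log2 fold change -0.77, SE 0.08; edgeR adjusted p = 0.00417). Uvrag, Map1lc3b and Plekhm1, which act in vesicle maturation, the autophagosome coat and fusion with lysosomes, fell to 0.762-, 0.771- and 0.782-fold. The calls of all 4 genes held without any 1 library, while the 8 falls became 4 without KO 2, KO 3, WT 1 or WT 3 and with scaling by library totals only, and 5 without WT 2. Of the list genes named above, Slc36a1, Oxr1, Gga3, Gnptg and Tbc1d7 were not called on the deposited signal, Oxr1 not with library totals only, Igf2r and Plbd1 not without a low-count filter, and Plbd1 not in limma-voom.

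**Figure D4:**
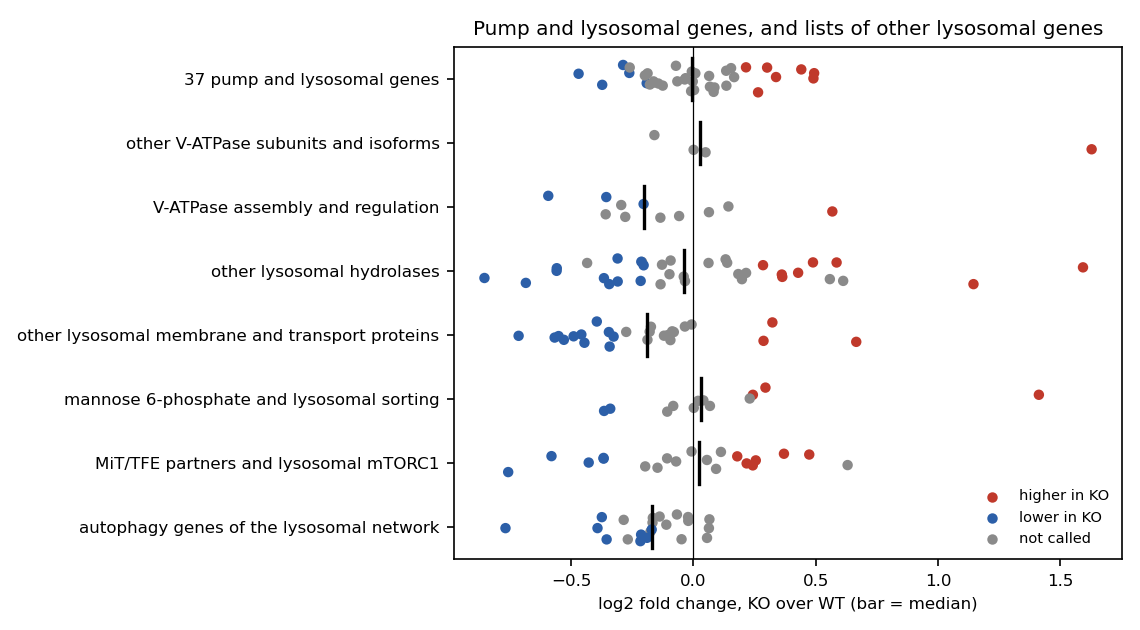
Log2 fold change of KO over WT (x axis) for the 37 genes and for the tested genes of each of the 7 other lists (rows), with 1 point per gene and a bar at the median. The 37 genes stay within 0.49 of 0, while Atp6v0d2 at 1.63 stands apart from the other pump isoforms, and all called autophagy genes lie left of 0.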

How the data were processed

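Whole-number counts per Ensembl gene were deposited by the authors, 1 column per library. DRAGEN, DESeq2 and build mm10 are named in the submitters' processing notes, and the sources used here do not give the annotation, strand setting or counting rule. A second deposited table holds a normalized signal by the authors (each count over a factor specific to gene and library), used only as an alternative on a log2(signal + 1) scale, which understates the change of low genes.

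From the counts, genes were filtered with filterByExpr (minimum count 10, 12862 genes kept of 21695 with a count), scaled by TMM and tested with edgeR 4.0.16 (robust quasi-likelihood, KO over WT, Benjamini-Hochberg adjusted p under 0.05 over all genes) in R 4.3.3. The step was tested on simulated data. CPM and TPM were computed from these counts, TPM with merged exon lengths, and gene positions came from GENCODE M21 on GRCm38. DESeq2 1.42.0, limma 3.58.1 (voom), other scalings and filters, and leaving out libraries were alternatives. Total counts ranged from 27170943 to 37113689. Replicate numbers are in accession order and only name libraries.

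The 37 genes and all lists, including those of other lysosomal genes and of markers, were chosen with earlier results of these data known. Besides the 37 genes, up to 4 called genes with the largest change and a mean log2 CPM of at least 0 were named per list, or all where 5 or fewer were called. Genes named from the marker lists are defining or called markers, and some markers, megakaryocyte ones included, are not reported here. Promoter sequences were taken from RefSeq on GRCm38.p6.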

Additional observations from a re-analysis of the deposited data

How the results depend on the processing

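Counts of called genes depended mainly on which libraries were kept. With 1 library left out, the 4532 genes called over the whole table ranged from 2005 to 5429, the 7 rises among the 37 genes from 3 to 8, their 5 falls from 3 to 7, the 22 rises among the other lysosomal genes from 3 to 24, and their 40 falls from 17 to 46. Without KO 2 and WT 2 together these counts were 1382, 1, 2, 5 and 14, and Gla, Man2b1 and Ppt1 were the members still called. DESeq2, limma-voom, RLE scaling, library totals only, 3 other low-count filters and the deposited signal left each of these 5 counts within 1.5 times of its value, with 5 to 8 rises and 4 to 7 falls among the 37 genes. None of the called genes (12 of the 37, 62 of the 7 other lists and 13 of the marker lists) changed direction under any of the 15 alternatives that gave it a value. No paired analysis was possible because the labels give no replicate numbers, and those used here follow accession order. With 3 libraries per genotype, the median standard error of a log2 fold change was 0.07 for the 37 genes and 0.10 for all tested genes, which limits the size of change that can be called.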
